A study of Homo sapiens with 6 samples.

Results

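Myosins are the motor proteins that pull on actin filaments, and each is built from heavy chains that carry the motor and light chains that bind to its neck. The genes described here were the protein-coding rows of the count table whose symbol begins with MYH (heavy chains of class II myosin), MYO (heavy chains of the unconventional classes) or MYL (light chains), followed by a number and at most 1 letter. This gave 43 of the 30327 genes in the table, 16869 of which were protein-coding. By class they were 8 class I myosins, 15 other unconventional myosins, 3 non-muscle and 7 muscle heavy chains of class II, 4 essential light chains and 6 regulatory light chains. MYO1E was set against the other myosins because its fall in these libraries was already known.

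The 6 libraries were made from SK-BR-3, an established line of breast cancer cells that overexpresses HER2. Cells of the 3 control libraries received a nontargeting siRNA (si_NC), and cells of the 3 treated libraries an siRNA against GRB2 (si_GRB2), an adaptor protein that links receptor tyrosine kinases to RAS. The descriptions name the treated libraries si_GRB2 while their titles speak of GRB2 overexpression. The study's methods describe transfection with siRNA, but where they list the groups they too name a GRB2 overexpression group. The sources mention more than 1 siRNA against GRB2, and the labels do not say which was used here or whether the 3 libraries of a group came from separate cultures, so that p-values measure the spread between these libraries only. GRB2 itself (ENSG00000177885.15) had 123.9, 129.5 and 125.7 CPM (reads counted on a gene, scaled to the size of the library after TMM normalization) in the libraries of si_NC and 27.8, 28.1 and 29.6 CPM in those of si_GRB2. The log2 fold change was −2.15, with a standard error (SE) of 0.04 and an adjusted p of 3.87e-15 in edgeR, which goes with the descriptions and against the titles.

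Reads counted on genes came to 24810378 at the least and 28532480 at the most, and log2 CPM correlated at 0.992 to 0.995 within groups and at 0.988 to 0.992 between groups. Tests used the quasi-likelihood method of edgeR on 15801 genes, and every adjusted p below comes from it unless another test is named. A gene was counted as changed at an adjusted p under 0.05, and as a DEG if its fold change was also above 1.5, or at most the inverse, with an adjusted p under 0.01. Of the markers of epithelial cells, 7 were tested, ERBB2, the gene of HER2, rose (log2 fold change 0.24) and the other 6 fell (−0.20 to −0.55), while CDH1 was near 0 in both groups (0.061 and 0.052 CPM).

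As background, class II myosin assembles into bipolar filaments that contract actin bundles, and each motor of non-muscle cells holds a pair of heavy chains (MYH9, MYH10 or MYH14), a pair of essential light chains and a pair of regulatory light chains. Phosphorylation of the regulatory light chain by myosin light chain kinase or by ROCK, the kinase activated by RHOA, switches the filament on, and a phosphatase built on PPP1R12A switches it off. Class I myosins are single-headed, bind membrane through their tail and use calmodulin as light chain, and they act at endocytic sites, at the cell edge and on endosomes. Other classes carry cargo (MYO5, MYO6), extend filopodia (MYO10), bind mitochondria (MYO19) or inactivate RHOA through a domain in their tail (MYO9A and MYO9B).

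Counts were high enough to test 29 of the 43 genes. Of these, 14 changed, 8 lower and 6 higher in si_GRB2, against 30.6% of all 15801 genes tested, 15.5% lower and 15.2% higher. All 14 had a mean of at least 10 CPM, as had 23 of the tested myosin genes, so that 60.9% of these had changed, beside 43.6% of the 9182 tested genes at that level. The median log2 fold change of the 29 genes was −0.00012, beside 0.0019 over all genes. Only MYO1E of the 29 was a DEG, a class that held 2.52% of all genes. Values of the 2 groups did not overlap for 16 tested myosin genes, including all 14 that changed, beside 42.3% of all genes. In bulk RNA, fewer cells of a type and less RNA per cell cannot be told apart. The number of myosin genes higher in si_GRB2 was less steady than the number lower. It was 3 without si_GRB2 replicate 1, 3 without si_NC replicate 1 and 1 without si_NC replicate 2, while 8 genes were lower without any 1 library.

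**Figure D1:**
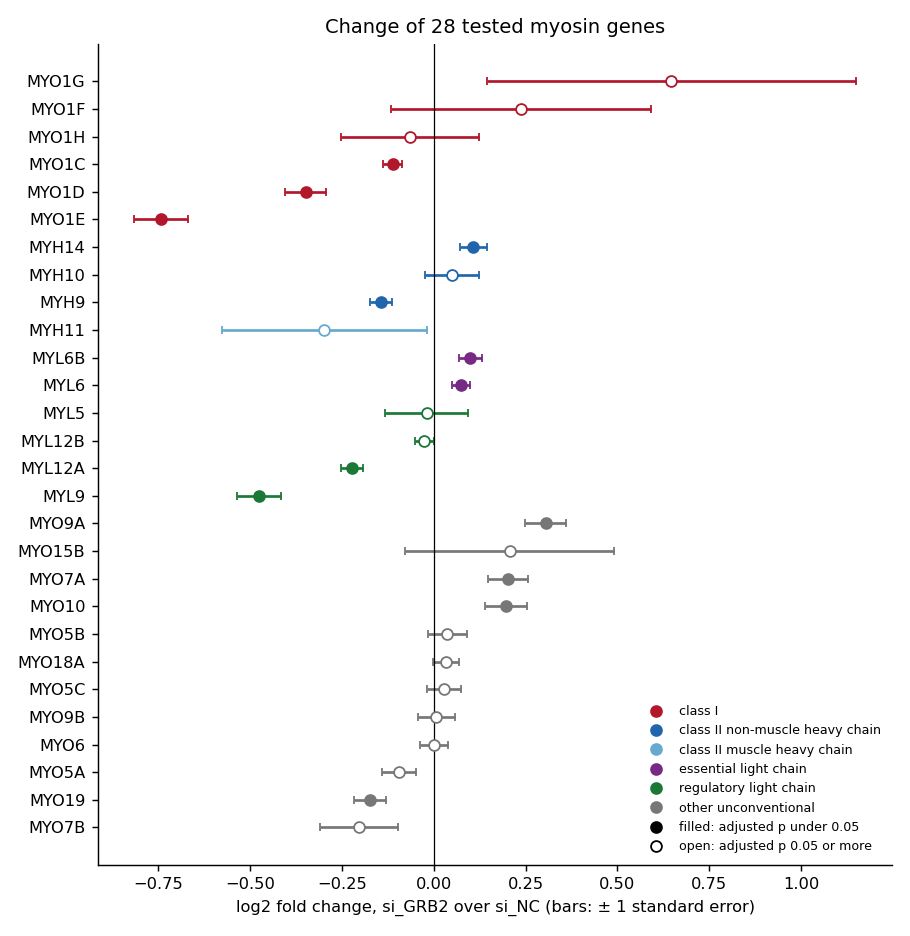
Log2 fold change (si_GRB2 over si_NC, horizontal axis) of 28 tested myosin genes, coloured by class, with bars of 1 standard error; filled points have an adjusted p under 0.05 (edgeR). MYO1E lies farthest to the left at −0.74, and MYO9A is the highest filled point at 0.31.

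Among the class I myosins, MYO1E, MYO1D and MYO1C fell, MYO1E by the most. No tested class I gene rose in edgeR, at an unadjusted p under 0.05 either, and DESeq2 called none higher. MYO1E, a long-tailed class I myosin that works in endocytosis and at cell adhesions, is ENSG00000157483.9, a gene on the minus strand of GRCh38 at chr15:59132434-59372871. It had 20.8, 22.8 and 21.4 CPM in si_NC and 11.6, 14.1 and 13.04 CPM in si_GRB2. Every si_GRB2 library lay below every si_NC library, and the lowest value was that of si_GRB2 replicate 1. Mean levels were 21.6 ± 1.01 CPM and 12.9 ± 1.27 CPM (SD, n = 3), which gives a log2 fold change of −0.74 (SE 0.07, adjusted p = 1.08e-06), a change of −40.2%. The fall held with every 1 library left out, with log2 fold changes from −0.81 to −0.67, and in every other fit, though limma on log2(FPKM + 1), a scale that understates changes of low values, gave −0.42. Matches of the siRNA to myosin transcripts were not searched here.

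The 250 bases before the start of MYO1E are shown because it was the DEG among these genes. They come from RefSeq (GRCh38.p14), chr15:59372872-59373121, and are written 5′ to 3′ on the minus strand, that of the gene. Capitals mark a CArG box, the motif bound by serum response factor, 31 to 22 bases before the start.
MYO1E: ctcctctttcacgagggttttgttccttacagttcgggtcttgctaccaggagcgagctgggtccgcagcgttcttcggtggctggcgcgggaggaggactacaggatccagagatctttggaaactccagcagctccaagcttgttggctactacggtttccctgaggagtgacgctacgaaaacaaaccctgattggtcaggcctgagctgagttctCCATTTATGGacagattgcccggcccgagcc
A RefSeq promoter was matched for 25 of the 29 tested genes (there was none for MYH11, MYL9 and MYO7A, among others), and among these MYO1E was the only one whose window held a CArG box on either strand, a motif found in 1.16% of 35116 promoters. MYO1E's window also held a CCAAT box (letters CCAAT, either strand), as did 11 of the 25 and 32.0% of all promoters. None of the other 8 motifs searched was in its window. These were the GC box GGGCGG (42.6% of all promoters, 22 of the 25), the AP-1 site TGACTCA (4.2%), the TATA box TATAA (18.9%), the TEAD site CATTCC (11.9%), the E-box CACGTG (6.34%), the palindromic cyclic AMP response element (1.65%), the ETS site CCGGAA (14.5%) and the NF-kB site (5.21%). Among 159 tested genes with a CArG box, 20.1% were lower and 13.8% higher (median log2 fold change −0.03), beside 17.5% and 17.5% of the 10680 tested genes with a matched promoter. A match describes letters in this window and not a bound site.

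MYO1D and MYO1C fell by less. MYO1D (ENSG00000176658.17, chr17:32492522-32877177, minus strand), a short-tailed myosin known from left-right patterning, had 23.6, 26.2 and 24.96 CPM in si_NC and 19.9, 19.9 and 18.9 CPM in si_GRB2. MYO1C (ENSG00000197879.17, chr17:1464186-1492686, minus strand), which helps deliver vesicles to the plasma membrane, had 327, 326 and 340 CPM and then 305, 309 and 306 CPM. In both genes every si_GRB2 library was below every si_NC library. The log2 fold changes were −0.35 for MYO1D (SE 0.06, adjusted p = 1.84e-04) and −0.11 for MYO1C (0.03, 0.00427). In limma on log2(FPKM + 1) both missed the threshold, MYO1D at adjusted p = 0.0863 and MYO1C at 0.617.

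Other class I genes were near the floor of detection. MYO1F, a myosin of immune cells, had 0.64, 0.51 and 0.29 CPM in si_NC and 0.52, 0.51 and 0.67 CPM in si_GRB2 (log2 fold change 0.24, SE 0.35, adjusted p = 0.673). MYO1G, a myosin of blood cells, had 0.43, 0.12 and 0.32 CPM and then 0.76, 0.44 and 0.20 CPM (0.65, 0.50, 0.379). MYO1H had 2.28, 2.20 and 2.10 CPM and then 2.19, 1.64 and 2.49 CPM (−0.06, 0.19, 0.843). The groups overlapped in all 3 genes, and with standard errors this large a change of the size of MYO1E's was not detectable in MYO1F and MYO1G at this depth. MYO1H lies opposite KCTD10, which had a read count of 3630% of that of MYO1H. Whether the counting used strand is not given in the sources used here, so that the counts of MYO1H may hold reads of KCTD10. MYO1A, the brush border myosin, had between 1 and 7 counts per library and was not tested. Of the blood cell markers, PTPRC was near 0 (0.012 CPM in both groups), and the marker sum moved from between 197 and 203 CPM to between 178 and 184 CPM. Of the 4 blood cell markers tested 2 fell, CORO1A among them (log2 fold change −0.29), and their part in the class I values was not tested.

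Set against MYO1D or MYO1C within a library, MYO1E was lower in every si_GRB2 library. The log2 ratio of MYO1E to MYO1D was −0.19, −0.20 and −0.22 in si_NC and −0.78, −0.50 and −0.54 in si_GRB2, a difference of −0.40 (SE 0.09). For MYO1E to MYO1C the difference was −0.64 (0.09). The groups did not overlap in either ratio. Exact two-sided permutation tests over the 6 libraries gave p = 0.1 for each, the smallest that 3 libraries against 3 allow, and 0.111 after adjustment over the 10 ratios computed. MYO1E was chosen because its fall in these libraries was known, so these ratios describe that fall and are not separate evidence of it.

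Levels between genes can be compared per length, in the authors' FPKM (reads scaled to gene length and library size). On that scale MYO1C made up most of the class I RNA, 82.99% ± 0.62 in si_NC and 85.7% ± 0.28 in si_GRB2 (SD, n = 3). MYO1E's share of class I FPKM was 4.53%, 4.93% and 4.52% in si_NC and 2.80%, 3.36% and 3.13% in si_GRB2. Its mean share went from 4.66% ± 0.23 to 3.10% ± 0.29 (SD, n = 3) with no overlap (exact two-sided permutation test, p = 0.1). The share of MYO1D (5.96% to 5.21%) moved the same way. Like the ratios, the share of MYO1E describes a fall known beforehand and is not separate evidence of it.

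**Figure D2:**
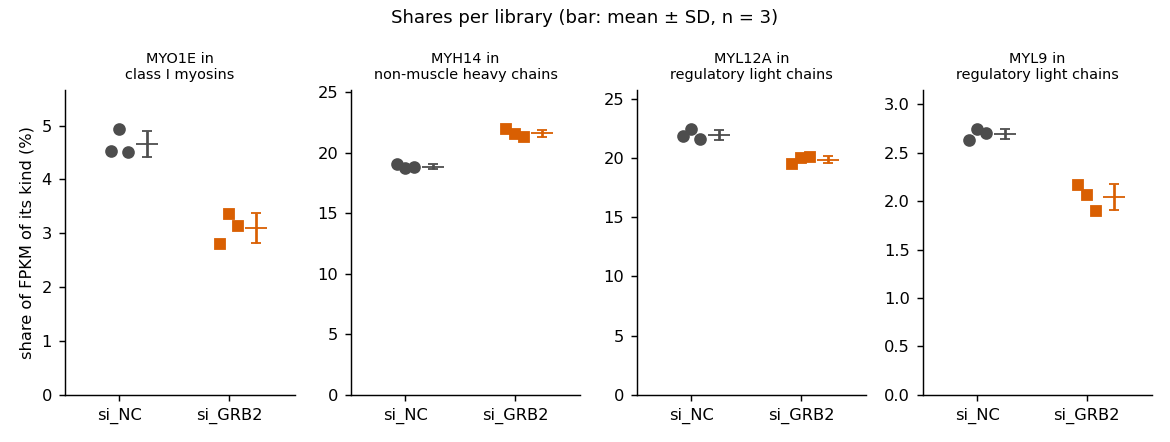
Share of FPKM within a class, in percent, in each library for MYO1E among class I myosins, MYH14 among non-muscle heavy chains, and MYL12A and MYL9 among regulatory light chains; points are libraries and bars show mean ± SD (n = 3). MYO1E, MYL12A and MYL9 lie lower in every si_GRB2 library than in any si_NC library, and MYH14 lies higher.

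Among the class II heavy chains of non-muscle cells, MYH9 fell slightly and MYH14 rose slightly. MYH9 (ENSG00000100345.22, chr22:36281280-36388010, minus strand), the heavy chain of non-muscle myosin IIA, had 357, 360 and 379 CPM in si_NC and 325, 342 and 325 CPM in si_GRB2, with no overlap. Its log2 fold change was −0.14 (SE 0.03, adjusted p = 0.00185), lost in limma on log2(FPKM + 1) (adjusted p = 0.503). MYH14 (ENSG00000105357.19, chr19:50188186-50310542, plus strand), the heavy chain of myosin IIC, had 101.2, 99.98 and 105.9 CPM and then 110.7, 113.8 and 106.3 CPM. The highest si_NC and the lowest si_GRB2 library nearly touched, and the log2 fold change of 0.11 (SE 0.04, adjusted p = 0.0338) missed the threshold without si_GRB2 replicate 1 (adjusted p = 0.0792) or 2 (0.166), without si_NC replicate 1 (0.12) or 2 (0.173), and in limma on log2(FPKM + 1) (0.263). MYH10 (ENSG00000133026.13, chr17:8474207-8631376, minus strand), the heavy chain of myosin IIB, had 11.4, 12.5 and 12.05 CPM and then 12.8, 12.2 and 12.2 CPM, with overlapping groups and a log2 fold change of 0.05 (SE 0.07, adjusted p = 0.667). The opposite strand of MYH10 holds NDEL1, with a read count of 258% of that of MYH10.

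The ratios of these chains were apart between groups. The log2 ratio of MYH14 to MYH9 was −1.82, −1.85 and −1.84 in si_NC and −1.55, −1.59 and −1.61 in si_GRB2, a difference of 0.25 (SE 0.02). That of MYH10 to MYH9 differed by 0.19 (0.06), and neither ratio overlapped (exact two-sided permutation test, p = 0.1, adjusted 0.111 over the 10 ratios). Per length, MYH9 made up 78.6% ± 0.11 of the 3 chains' FPKM in si_NC and 75.6% ± 0.39 in si_GRB2, and MYH14 18.9% ± 0.17 and 21.6% ± 0.32 (SD, n = 3). Neither share overlapped between groups (exact two-sided permutation test, p = 0.1, adjusted 0.15 over 12 shares). MYH10's share of 2.55% and 2.82% overlapped (exact permutation p = 0.2).

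The regulatory light chains moved unequally. MYL9 and MYL12A fell, while MYL12B, the most abundant of them, did not pass the test. Of the 4 tested, edgeR called none higher, at an unadjusted p under 0.05 either, nor did DESeq2. These genes encode near-identical proteins, and the last 120 coding bases before the stop codon are printed to show how far reads of one can be told from another. They were read from GRCh38 with GENCODE 44 on the plus strand, at chr18:3277815-3277934 for MYL12B, chr18:3255796-3255915 for MYL12A and chr20:36549127-36549246 for MYL9. Capitals mark bases that differ from MYL12B.
MYL12B: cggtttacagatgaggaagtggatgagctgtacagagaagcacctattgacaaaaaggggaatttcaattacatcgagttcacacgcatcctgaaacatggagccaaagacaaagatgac
MYL12A: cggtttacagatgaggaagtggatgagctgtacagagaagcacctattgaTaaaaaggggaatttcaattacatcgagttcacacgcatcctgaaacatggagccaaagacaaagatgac
MYL9: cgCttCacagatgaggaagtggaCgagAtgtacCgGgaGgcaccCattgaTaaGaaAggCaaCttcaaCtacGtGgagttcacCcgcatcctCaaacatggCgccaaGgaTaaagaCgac
MYL12A differed from MYL12B at 1 of these 120 bases and MYL9 at 22. Over the whole coding sequence, 95.2% of 516 aligned bases were the same in MYL12A and MYL12B, 80.8% in MYL9 and MYL12B, and 78.9% in MYL9 and MYL12A. The longest run of bases that MYL12A and MYL12B transcripts share was 77, and no 100-base window of either was found in another gene's transcripts. The authors kept uniquely mapped reads, and the reads they sequenced were longer than this run. Only a read shortened by trimming could lie wholly within it, and such a read may have been dropped from both genes.

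MYL9 (ENSG00000101335.10, chr20:36541497-36551447, plus strand), the regulatory light chain best known from smooth muscle, had 21.7, 22.8 and 22.8 CPM in si_NC and 17.1, 16.1 and 15.2 CPM in si_GRB2. The groups were well apart, with means of 22.4 ± 0.62 CPM and 16.1 ± 0.98 CPM (SD, n = 3) and a log2 fold change of −0.48 (SE 0.06, adjusted p = 1.86e-05). The call held in every other fit and without any 1 library. Along the whole of MYL9 the opposite strand holds DLGAP4-AS1, with a read count of 15.3% of that of MYL9. All 4 tested markers of smooth muscle or myoepithelial cells fell too, beside 15.5% of all genes tested. They were KRT5 (log2 fold change −1.02), ACTA2 (−1.31), LMOD1 (−0.69) and TAGLN (−0.27). The summed level of the 7 markers went from between 44.6 and 46.3 CPM to between 29.3 and 31.4 CPM. Most of it came from TAGLN (means of 23.2 CPM in si_NC and 19.3 CPM in si_GRB2) and KRT5 (17.1 and 8.43 CPM). KRT14 was near 0 (0.18 and 0.13 CPM). The defining markers CNN1 and MYOCD stayed at or under 0.049 CPM on average in both groups. The part of these 7 markers in the MYL9 result was not tested.

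MYL12A (ENSG00000101608.13, chr18:3247481-3256236, plus strand), a ubiquitous regulatory light chain, had 194, 201 and 197 CPM in si_NC and 166, 168 and 173 CPM in si_GRB2. There was no overlap, and the log2 fold change was −0.22 (SE 0.03, adjusted p = 2.46e-05), with a miss in limma on log2(FPKM + 1) (adjusted p = 0.0948). Its neighbour MYL12B (ENSG00000118680.14, chr18:3261479-3278461, plus strand) had 379, 380 and 391 CPM and then 378, 371 and 381 CPM, which overlapped (log2 fold change −0.03, SE 0.03, adjusted p = 0.511). MYL5, a minor light chain of this group, had 14.2, 10.4 and 11.2 CPM and then 13.2, 10.2 and 12.1 CPM (log2 fold change −0.02, adjusted p = 0.926), and its opposite strand holds ATP5ME, with a read count of 647% of that of MYL5. Within a library, the log2 ratio of MYL12A to MYL12B moved by −0.20 (SE 0.02) without overlap between groups (exact permutation p = 0.1, adjusted 0.111 over the 10 ratios).

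MYL9 was also lower against MYL12A and MYL12B within a library, and its ratio to MYL5 was not computed. The log2 ratio of MYL9 to MYL12B was −4.13, −4.06 and −4.10 in si_NC and −4.46, −4.53 and −4.65 in si_GRB2, a difference of −0.45 (SE 0.06), and that of MYL9 to MYL12A differed by −0.25 (0.07). Neither ratio overlapped between groups (exact permutation p = 0.1, adjusted 0.111). Per length, MYL12B made up 74.4% ± 0.39 of regulatory light chain FPKM in si_NC and 77.1% ± 0.13 in si_GRB2, MYL12A 21.9% ± 0.41 and 19.8% ± 0.31, and MYL9 2.69% ± 0.05 and 2.05% ± 0.13 (SD, n = 3). None of these 3 shares overlapped between groups (exact two-sided permutation test, p = 0.1, adjusted 0.15).

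The essential light chains were slightly higher. MYL6 (ENSG00000092841.19, chr12:56158346-56163496, plus strand), the essential light chain of non-muscle and smooth muscle myosin, had 611, 603 and 595 CPM in si_NC and 648, 629 and 629 CPM in si_GRB2. MYL6B (ENSG00000196465.10, chr12:56152256-56159647, plus strand) had 160.9, 163.9 and 165.4 CPM and then 178.9, 169.8 and 176.7 CPM. In neither gene did the groups overlap, with log2 fold changes of 0.07 for MYL6 (SE 0.02, adjusted p = 0.0285) and 0.10 for MYL6B (0.03, 0.0192). The MYL6 call was lost without si_GRB2 replicate 1 (adjusted p = 0.102), without si_NC replicate 1 (0.0629), 2 (0.106) or 3 (0.158), and with other filters on low counts (0.0503 and 0.0545). MYL6B missed it without si_GRB2 replicate 1 (0.0749) or 3 (0.0614) and without si_NC replicate 1 (0.103) or 2 (0.0732). Both genes overlap by 1302 bases on the same strand and their transcripts share a run of 48 bases, so that reads could have been split between them. Their ratio overlapped between groups (difference −0.03, exact permutation p = 0.5).

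**Figure D3:**
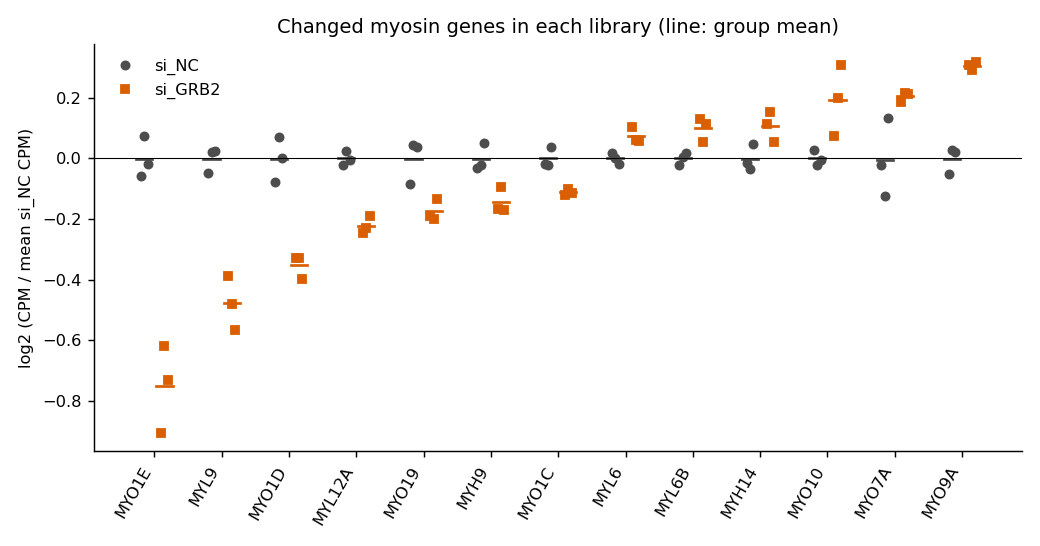
Level in each library of 13 myosin genes with an adjusted p under 0.05, as log2 of CPM over the mean of the 3 si_NC libraries (vertical axis); points are libraries and short lines are group means. For each of the 13 genes the 3 si_GRB2 points lie on 1 side of the 3 si_NC points, farthest for MYO1E.

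Of the unconventional myosins outside class I, 12 of 15 genes were tested, 3 rose (MYO9A, MYO7A and MYO10) and 1 fell (MYO19). This was 33.3% of those tested, near the 30.6% of all 15801 genes tested that changed. Of all tested genes with a mean of at least 10 CPM, 43.6% changed. MYO9A (ENSG00000066933.16, chr15:71822291-72118577, minus strand), which carries a domain that inactivates RHOA, had 16.4, 17.4 and 17.3 CPM in si_NC and 21.1, 20.8 and 21.2 CPM in si_GRB2. This was the largest rise among the myosins that changed, at a log2 fold change of 0.31 (SE 0.06, adjusted p = 5.68e-04), with a narrow spread inside both groups. In limma on log2(FPKM + 1), MYO9A missed the threshold (adjusted p = 0.173), and SENP8 on its opposite strand had a read count of 13.3% of that of MYO9A. The paralogue MYO9B did not pass the test (log2 fold change 0.01, SE 0.05, adjusted p = 0.936), and the log2 ratio of MYO9A to MYO9B differed by 0.30 (SE 0.07) without overlap (exact permutation p = 0.1, adjusted 0.111).

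MYO7A (ENSG00000137474.22, chr11:77128246-77215241, plus strand), the myosin of sensory hair bundles, had 37.1, 34.5 and 41.3 CPM in si_NC and 42.8, 43.7 and 43.6 CPM in si_GRB2. Its si_NC libraries were widely spread, and the log2 fold change of 0.20 (SE 0.05, adjusted p = 0.00988) missed the threshold without si_NC replicate 2 (adjusted p = 0.0776) and in limma on log2(FPKM + 1) (0.233). MYO10 (ENSG00000145555.15, chr5:16661907-16936288, minus strand), the filopodial myosin, had 28.4, 27.5 and 27.8 CPM and then 29.4, 32.1 and 34.6 CPM. For MYO10 si_GRB2 replicate 3 was highest, and the log2 fold change of 0.20 (SE 0.06, adjusted p = 0.0143) was not called without it (adjusted p = 0.0844), without si_NC replicate 2 (0.0621) or in limma on log2(FPKM + 1) (0.277). MYO19 (ENSG00000278259.5, chr17:36495636-36543435, minus strand), the mitochondrial myosin, had 64.9, 70.9 and 70.6 CPM and then 60.3, 59.98 and 62.7 CPM. The groups of MYO19 did not overlap (log2 fold change −0.17, SE 0.04, adjusted p = 0.0051), but limma on log2(FPKM + 1) did not call it (0.424). ZNHIT3 and PIGW lie opposite MYO19 with read counts of 31.1% and 29.9% of that of MYO19, and 7.44% of the 100-base windows of its transcript were also found in ZNHIT3.

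The class V myosins and MYO6 did not pass the test. MYO5A, MYO5B and MYO5C, the class V transporters, had log2 fold changes of −0.09, 0.04 and 0.03, and MYO6, which walks toward the minus end of actin, of −0.00012 (SE 0.04, adjusted p = 0.999). MYO5A had 35.7, 37.5 and 34.8 CPM in si_NC and 33.1, 33.65 and 34.3 CPM in si_GRB2, so that its groups did not overlap though it missed the threshold (adjusted p = 0.139). MYO6 had 73.7, 69.2 and 70.9 CPM in si_NC and 72.8, 71.2 and 69.8 CPM in si_GRB2. MYO18A, a myosin bound to the Golgi, was at 0.03. ENSG00000266997 overlaps MYO5B on the same strand, with a read count of 47.1% of that of MYO5B. In all, 9 of the 23 genes with at least 10 CPM were not called, with log2 fold changes between −0.09 and 0.05, standard errors of at most 0.11 and adjusted p of at least 0.139. The 6 tested genes under 10 CPM (MYO1F, MYO1G, MYO1H, MYH11, MYO7B and MYO15B) had standard errors of 0.11 to 0.50. Neither edgeR nor DESeq2 called any of the 6, and none had an unadjusted p under 0.05 in edgeR, with a lowest adjusted p of 0.171 for MYO7B (log2 fold change −0.20).

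Muscle myosins were at or near 0, and 6 of the 7 muscle heavy chains were not tested. MYH11, the smooth muscle heavy chain, was the exception, with 1.46, 1.06 and 0.75 CPM in si_NC and 1.03, 0.76 and 0.87 CPM in si_GRB2 (log2 fold change −0.30, SE 0.28, adjusted p = 0.479). NDE1 lies on its opposite strand, with a read count of 3410% of that of MYH11. The few counts of MYH11 may therefore hold reads of NDE1. The embryonic chain MYH3 had the most counts of the 14 untested genes, 14, 12 and 9 and then 9, 7 and 6. The cardiac chains MYH6 and MYH7 had 2 counts each over all 6 libraries. No untested gene passed 14 counts or 0.50 CPM in any library, which in addition to MYH3, MYH6, MYH7 and MYO1A holds for MYH7B, MYH13, MYH15, MYL2, MYL3, MYL4, MYL7, MYO3B, MYO15A and MYO16. Of the skeletal and cardiac muscle markers, 3 were tested and none changed (lowest adjusted p 0.401, and none at an unadjusted p under 0.05 in edgeR or called by DESeq2), with a marker sum of 4.35 to 4.5996 CPM in si_NC and 3.97 to 5.21 CPM in si_GRB2.

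In order of level per length, MYL12B led with 177 ± 9.33 FPKM in si_NC (SD, n = 3), followed by MYL6 (110 ± 2.58), MYL12A (52.3 ± 2.17) and MYL6B (40.3 ± 1.99). The heavy chains came next, MYO1C with 34.1 ± 2.03 FPKM and MYH9 with 33.0 ± 2.27 FPKM, whose libraries overlapped. MYO18A (8.65 ± 0.70) and MYH14 (7.91 ± 0.52) overlapped too, while MYL9 (6.42 ± 0.39) and MYO6 (5.33 ± 0.20) stood apart from their neighbours below. MYO1E, with 1.91 ± 0.12 FPKM, ranked 20 of 29. From rank 15 to rank 18, MYO1D, MYO5A, MYL5 and MYO5B lay between 2.45 and 2.16 FPKM, each overlapping the next. In si_GRB2 MYO1E had 1.18 ± 0.15 FPKM and MYO1D 1.98 ± 0.06 FPKM.

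**Figure D4:**
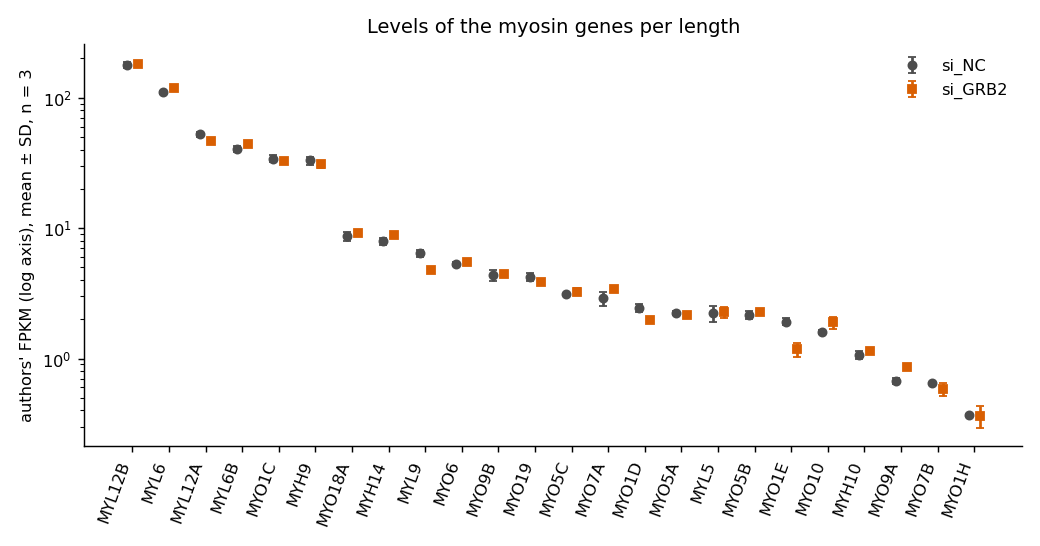
Level per length (the authors' FPKM, log axis) of 24 myosin genes with a si_NC mean of at least 0.1 FPKM, in order of that mean, as mean ± SD of 3 libraries in each group. Light chains lead, MYO1C and MYH9 are the most abundant heavy chains, and MYO1E shows the widest gap between groups.

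The regulators and partners of myosin were read from 5 lists. Of 16 light chain kinases and RHOA-family effectors, 14 were tested, 6 rose and 1 fell, with a median log2 fold change of 0.01. RHOB, an endosomal small GTPase, had the largest rise, from 459, 450 and 469 CPM to 592, 582 and 582 CPM (log2 fold change 0.35, adjusted p = 2.81e-08). ROCK2, which phosphorylates the regulatory light chain, rose by 0.27 (adjusted p = 8.08e-05), and CDC42BPB, a related kinase, by 0.16 (0.0104). RHOC was the gene that fell, from 105.9, 107.0 and 111.9 CPM to 86.9, 79.9 and 78.4 CPM (−0.41, adjusted p = 1.55e-06), while RHOA had 458 CPM and 469 CPM on average (0.03, 0.368). The count of 6 was 3 without si_GRB2 replicate 2 or without si_NC replicate 2, and 2 genes fell without si_NC replicate 3.

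Of 9 genes of the light chain phosphatase and its inhibitors, 8 were tested. PPP1R12C, a targeting subunit, rose (log2 fold change 0.18, adjusted p = 0.00773) but not without si_NC replicate 2, where no gene of the list rose at an adjusted p under 0.05 and 2 did at an unadjusted one (edgeR; DESeq2 on all libraries called 1). PPP1R14C, a phosphatase inhibitor, fell (−0.35, adjusted p = 1.02e-04), and the targeting subunit PPP1R12A of the main complex had a log2 fold change of −0.09 (adjusted p = 0.211). The median over the list was −0.06.

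Calmodulin serves class I, V and other myosins as light chain, and its genes CALM2 and CALM3 were lower. CALM2 had 603, 607 and 578 CPM in si_NC and 493, 488 and 516 CPM in si_GRB2 (log2 fold change −0.26, adjusted p = 3.72e-06). CALM3 fell by 0.23 on the log2 scale (adjusted p = 2.14e-05). DYNLL2, a light chain shared by dynein and myosin V, rose from 52.9, 53.1 and 56.5 CPM to 66.1, 69.5 and 71.5 CPM (0.35, adjusted p = 1.14e-05). Over the list, 3 genes were lower and 1 higher of 7 tested, with a median of −0.07.

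Of 19 folding factors, cargo adaptors and tail partners, 17 were tested, 8 rose and 2 fell, with a median log2 fold change of 0.09. TAX1BP1, an autophagy receptor that binds MYO6, rose from 176, 180 and 169 CPM to 224, 232 and 232 CPM (0.39, adjusted p = 1.06e-07). UNC45A, the chaperone that folds non-muscle myosin heads, rose by 0.23 (2.36e-04) and CALCOCO2, another autophagy receptor, by 0.22 (0.0402). DAB2, the clathrin adaptor that recruits MYO6, fell from 12.6, 11.4 and 12.1 CPM to 7.23, 6.81 and 7.98 CPM (−0.71, adjusted p = 1.66e-05) and was a DEG. OPTN, a further MYO6 partner, fell by 0.16 (0.0497), with overlapping groups. The count of 8 was 3 without si_GRB2 replicate 2 or si_NC replicate 2 and 5 without si_GRB2 replicate 3 or si_NC replicate 1. DAB2 was the 1 gene lower without si_GRB2 replicate 1 or 3 or si_NC replicate 2 or 3.

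Of the actin track that myosins walk on, 3 of the 4 tropomyosin genes and the muscle-type actins ACTA1, ACTA2 and ACTG2 changed. The list held 11 genes, namely actins, tropomyosins and CALD1. Of these, 10 were tested, 6 fell, CALD1 among them, and 1 rose, with a median log2 fold change of −0.27 and 3 DEGs. TPM1, which stabilizes contractile filaments, had 511, 539 and 515 CPM in si_NC and 352, 374 and 368 CPM in si_GRB2 (−0.52, adjusted p = 2.13e-09). TPM4 moved the other way, from 205, 208 and 214 CPM to 317, 323 and 313 CPM (0.61, adjusted p = 1.98e-10). TPM2 fell by 0.33 (0.0172). The groups did not overlap in these 3 genes. TPM3 overlapped between groups, with 451, 473 and 457 CPM in si_NC and 444, 461 and 461 CPM in si_GRB2 (−0.01, adjusted p = 0.753).

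The abundant cytoplasmic actins did not pass the test, ACTB with 4791 ± 69.2 CPM and 4708 ± 83.5 CPM (log2 fold change −0.03, adjusted p = 0.377) and ACTG1 with 1148 ± 10.6 CPM and 1130 ± 21.7 CPM (−0.02, 0.494; SD, n = 3). The muscle-type actins that fell were rare, ACTG2 with 1.07, 1.49 and 1.07 CPM and then 0.36, 0.33 and 0.28 CPM (−1.89, adjusted p = 1.70e-04), ACTA2 with 1.57, 1.29 and 2.28 CPM and then 0.48, 0.76 and 0.83 CPM (−1.31, 0.00192), and ACTA1 (−0.93, 0.0269). ACTA2 is also among the smooth muscle markers given beside MYL9. CALD1, which binds both actin and myosin, fell by 0.22 (0.00117).

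**Figure D5:**
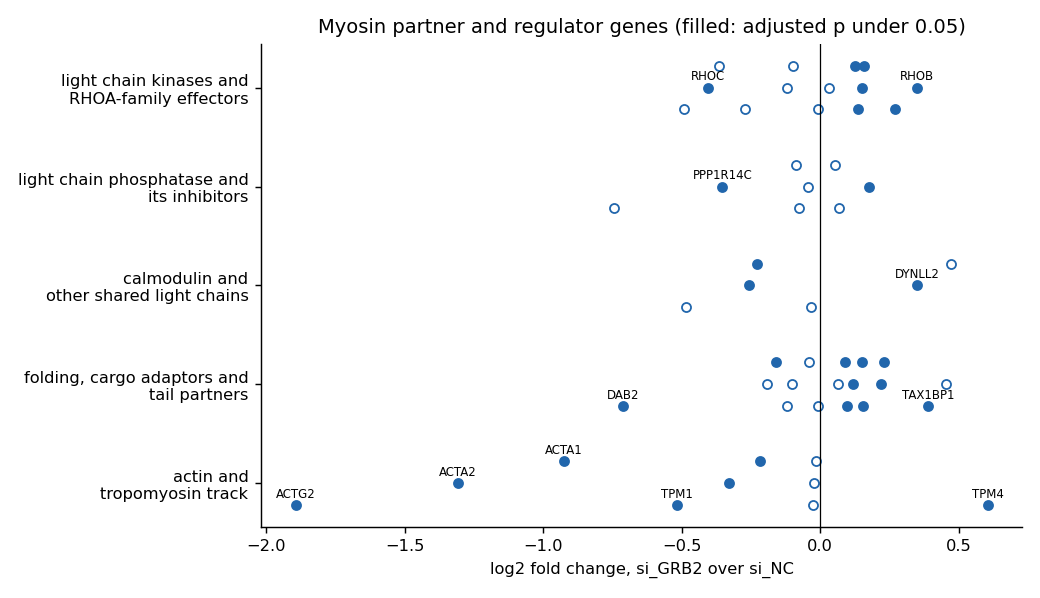
Log2 fold change (si_GRB2 over si_NC, horizontal axis) of the genes reported here from 5 lists of myosin regulators and partners (rows); filled points have an adjusted p under 0.05 (edgeR), and the largest called changes are named. TPM4 at 0.61 and TAX1BP1 at 0.39 lie farthest to the right among filled points, and ACTG2 at −1.89 and ACTA2 at −1.31 farthest to the left.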

How the data were processed

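The mRNA of 3 si_NC and 3 si_GRB2 samples of SK-BR-3 cells was sequenced with a strand-specific kit. Reads were trimmed with FASTX-Toolkit and aligned by the authors with HISAT2 on GRCh38 (the aligner and build are also in the submitters' processing notes), and those mapped to 1 place were kept. The authors deposited a raw read count and an FPKM value for each gene. The counting tool, its strand setting, the annotation release and the total behind FPKM are not given in the sources used here. The authors' own test was DESeq2. Of 30327 gene identifiers, 99.7% were found in GENCODE 44, including all 43 myosin genes. GENCODE 44 gave positions and coding sequences, and RefSeq gave promoters.

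Counts were scaled with TMM factors and filtered with filterByExpr, which left 15801 genes for the quasi-likelihood test of edgeR 4.0.16 in R 4.3.3. The model had no covariate, and Benjamini-Hochberg adjustment covered all genes tested. An SE is the log2 fold change over the root of the F statistic. Totals of 24810378 to 28532480 counts per library set the precision, and values of genes with few counts are less precise. On simulated counts for the 15801 genes, this test recovered 66.2% of 68 genes changed by 1.25-fold, 75.8% of 66 changed by 1.5-fold and 86.4% of 66 changed by 2-fold, while 7.32% of 164 calls fell on genes left unchanged. The simulation changed only 200 genes and set the spread of each gene by its level alone. In the data 30.6% of genes were called, so these rates need not hold there. Shares of FPKM and ratios of CPM were compared by exact permutation tests over the 6 libraries.

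Genes shown with every library were those that changed, the tested class I myosins, the non-muscle class II chains and GRB2. Of the regulators, the rule was at most 3 called genes per list and direction, those with the largest log2 fold change. Some of these are shown with every library. TPM1, TPM2 and CALD1 are given beyond this rule, as 3 genes of their list fell by more. They and a few further genes (MYO5A, MYO6, MYL5, MYH11, MYH3, RHOA, PPP1R12A, TPM3, ACTB and ACTG1) were named after their values were seen. The myosin genes, the lists and these rules were chosen with earlier results of these data known. MYO15B was placed among the unconventional myosins by its name, and MYH15 had no FPKM row. MYH1, MYH2, MYH4, MYH8, MYL1, MYL10, MYL11, MYO3A and MYO18B are not analysed here. The values of some genes are not reported here, though counts, medians and shares include them.

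The other fits were DESeq2 1.42.0, edgeR with the size factors of DESeq2, edgeR with no filter or with at least 10 counts in every library, a robust dispersion fit, a replicate block, limma 3.58.1 on log2(FPKM + 1) or log2(FPKM + 0.1), the former also for genes with a mean FPKM of at least 1, stricter limits, and the omission of each library. Tables and figures were made in Python 3.11.15 with pandas 2.3.3 and matplotlib 3.10.9.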

Additional observations from a re-analysis of the deposited data

How the results depend on the processing

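Over 209 refits of the 14 changed myosin genes, 159 kept the call, 50 kept the direction but missed the threshold and 0 reversed. MYO1E and MYL9 were called in all. Counts of myosin genes were 6 higher and 8 lower. At an adjusted p under 0.01, 2 were higher. At the DEG limits 0 were higher (edgeR and DESeq2 each called 6 at an adjusted p under 0.05) and 1 was lower. In limma on log2(FPKM + 1), on log2(FPKM + 0.1) and on log2(FPKM + 1) with a mean FPKM of at least 1, 0 were higher each time (5, 6 and 5 at an unadjusted p under 0.05), and 2, 2 and 5 were lower. With 1 library left out, 1 to 5 were higher and 8 to 8 lower.

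In the same order of limma fits, the lists gave 1, 2 and 3 higher kinases and RHOA-family effectors, 0, 0 and 0 higher phosphatase genes (1 each at an unadjusted p), 1 and 1 lower calmodulin genes in the former 2, 2, 2 and 3 higher folding and cargo genes with 1, 1 and 1 lower, and 2, 2 and 1 lower actin and tropomyosin genes. Kinases and RHOA-family effectors lower came to 2 with at least 10 counts in every library and 2 with the robust fit. Folding and cargo genes lower came to 1 in DESeq2, 1 with its size factors and 1 with no filter. With 1 library left out, the ranges were 3 to 6 higher and 1 to 2 lower for kinases and RHOA-family effectors, 0 to 1 higher for the phosphatase list, and 3 to 7 higher and 1 to 2 lower for folding and cargo genes.

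Only genes that were never called changed sign. MYO6 came to 0.00092 with DESeq2's size factors, 0.00069 in DESeq2, 0.0449 in limma with + 0.1, 0.0386 with + 1 and 0.00050 with the replicate block. MYL12B came to 0.0183 and 0.0182 in limma, and MYL5 to 0.0309 with + 0.1 and 0.0215 with + 1. With 1 library left out, the ranges were −0.0269 to 0.0174 for MYO6, −0.039 to 0.0496 for MYO9B, −0.11 to 0.118 for MYL5, −0.0406 to 0.51 for MYO1F, −0.203 to 0.0914 for MYO1H, −0.0315 to 0.363 for MYO15B, −0.00092 to 0.0661 for MYO18A, −0.0026 to 0.0735 for MYO5B and −0.0012 to 0.0574 for MYO5C, and the share of MYL5 moved by −0.0188 to 0.133 percentage points. The cause was not tested.

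Samples with the same replicate number did not deviate together (r = 0.232, −0.0948 and 0.0804), and 1 of 3 si_NC libraries correlated best with its own number. With the replicate block, 5 myosin genes were higher and 8 lower, and MYL6 missed the threshold (log2 fold change 0.07, adjusted p = 0.0835, edgeR). Genes under 10 CPM had standard errors of 0.11 to 0.50, and changes larger than their standard error could still be missed. MYO7B, with a log2 fold change of −0.20 and an SE of 0.11, was not called (adjusted p = 0.171, edgeR).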

Other observations

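The count table also holds rows named after myosins that are not protein-coding genes. MYL12-AS1, an antisense RNA on chromosome 18 that overlaps both MYL12A and MYL12B, had 153, 108 and 75 counts in the si_NC libraries and 110, 91 and 77 counts in the si_GRB2 libraries (log2 fold change −0.21, SE 0.21, adjusted p = 0.525 in edgeR). The groups overlapped. Its counts came to 2.1% of those of MYL12A and 1.01% of those of MYL12B. MYH16, a pseudogene of a jaw muscle heavy chain, had between 3 and 10 counts per library. The processed pseudogenes MYL12BP1 and MYL6P1 had at most 5 counts and at most 1 count in any library, so that few uniquely mapped reads were counted on these copies of abundant light chains.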
